A study of Homo sapiens with 6 samples.

Results

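Heat shock proteins, their J-protein and BAG partners and the chaperonins were followed in A2058 cells in which the cancer-testis antigen CT16 was silenced. Genes were taken by platform symbol, namely HSPA, HSPB, HSPH, HSP90A and DNAJ genes, CCT and BAG genes with a number, TCP1, HSPD1, HSPE1 and HSF1, without the endoplasmic reticulum chaperones HSPA5, HSP90B1, DNAJB9, DNAJB11 and DNAJC3. By this choice 81 of the 16225 named genes on the array were chaperones or co-chaperones, and 60 of the 81 had a detection p under 0.05 on 3 or more of the 6 arrays, out of 8909 named genes that passed in all. The 60 were measured by 64 probes. Not all of them are cytosolic. HSPA9, HSPD1, HSPE1, DNAJA3, DNAJC4, DNAJC11, DNAJC15, DNAJC19 and DNAJC30 are known or listed as mitochondrial proteins and DNAJC1, DNAJC10 and DNAJB12 as proteins of the endoplasmic reticulum, so the genes are called chaperones here whatever their compartment.

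A2058 is a human melanoma cell line. The cells received CT16 siRNA (siRNA1 of the study) or a non-targeting control siRNA by lipid transfection, and total RNA was taken after 48 h from 3 cultures per group. Each RNA was hybridized to 1 Illumina Sentrix Human-6 BeadChip array, so there were 3 CT16 siRNA arrays and 3 control siRNA arrays of 1 cell line and 1 targeting siRNA. Values are log2 signals after quantile normalization between the arrays, and a difference is the mean of the CT16 siRNA arrays minus that of the control siRNA arrays.

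Chaperones keep other proteins folded. HSP70 proteins bind exposed stretches of a client in a cycle that J-proteins start by stimulating ATP hydrolysis and that HSP110 and BAG proteins end by releasing the nucleotide, HSP90 then matures selected clients such as kinases and steroid receptors, and the TRiC chaperonin, a double ring built of TCP1 and the CCT proteins, folds actin and tubulin in its cavity. When unfolded proteins accumulate, the transcription factor HSF1 binds heat shock elements, inverted repeats of GAA and TTC, and raises the inducible members, while related members of the same families are made constitutively. Tumor cells, melanoma among them, are known to depend on HSP90 to stabilize mutated kinases.

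The largest difference among the chaperones was that of HSP90AA1, the inducible cytosolic HSP90. The 250 bases before its start are shown beside those of HSP90AB1, its constitutive relative with a difference near 0, and of HSPH1, which had the next largest difference. They were taken from RefSeq (GRCh38.p14), 5′ to 3′ on the strand of the gene. Capitals mark matches to a heat shock element of 3 units, spelled GAANNTTCNNGAA or, on the opposite strand, TTCNNGAANNTTC. The stretches are chr14:102087045-102087294 on the minus strand for HSP90AA1, chr6:44247693-44247942 on the plus strand for HSP90AB1 and chr13:31162389-31162638 on the minus strand for HSPH1. HSP90AA1 has 2 listed starts and HSP90AB1 has 3, and for each gene only the start shown holds a match.
HSP90AA1: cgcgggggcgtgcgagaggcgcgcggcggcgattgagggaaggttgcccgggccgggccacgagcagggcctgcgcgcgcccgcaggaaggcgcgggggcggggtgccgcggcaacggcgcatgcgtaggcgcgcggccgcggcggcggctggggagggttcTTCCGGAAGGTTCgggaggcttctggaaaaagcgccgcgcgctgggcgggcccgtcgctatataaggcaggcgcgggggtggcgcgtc
HSP90AB1: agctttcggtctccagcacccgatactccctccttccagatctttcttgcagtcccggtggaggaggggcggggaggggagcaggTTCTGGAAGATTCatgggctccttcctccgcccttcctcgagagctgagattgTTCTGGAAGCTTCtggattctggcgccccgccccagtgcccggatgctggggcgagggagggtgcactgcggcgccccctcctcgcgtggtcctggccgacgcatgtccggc
HSPH1: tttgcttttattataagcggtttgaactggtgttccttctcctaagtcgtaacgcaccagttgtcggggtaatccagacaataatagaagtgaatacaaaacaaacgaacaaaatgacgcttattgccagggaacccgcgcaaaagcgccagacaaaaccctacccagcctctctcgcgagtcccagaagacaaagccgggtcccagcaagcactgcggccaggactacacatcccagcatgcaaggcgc
HSP90AA1 held 1 match, which began 88 bases before the start. HSP90AB1 held 2, which began 165 and 112 bases before the start shown. HSPH1, the inducible HSP110, held no match in this window, which says only that these letters are not in it.

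Another 4 chaperones above background had a match of 3 units, and the 30 bases around the match nearest to the start are shown so that they can be set beside the differences of these genes. They lie at chr9:33025268-33025297 (plus strand) for DNAJA1, chr7:157336865-157336894 (plus strand) for DNAJB6, chr2:197500059-197500088 (minus strand) for HSPD1 and chr11:123062170-123062199 (minus strand) for HSPA8.
DNAJA1: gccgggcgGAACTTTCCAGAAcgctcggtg
DNAJB6: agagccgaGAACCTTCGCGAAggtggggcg
HSPD1: attTTCTGGAAAGTTCTGGAAccgagcgag
HSPA8: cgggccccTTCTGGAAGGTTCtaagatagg
The match of DNAJA1 lay just after the start, and that of DNAJB6 began 131 bases before it. HSPD1 has 2 listed starts, and only the one shown holds a match. It had 2 overlapping matches, 245 and 240 bases before this start. HSPA8 had 2 matches, 230 and 55 bases before the start.

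The targeted gene could not serve as a check on these arrays, because the probe for PAGE5, which encodes CT16, was not above background on any array. Its signal was 161.8, 170.6 and 161 with CT16 siRNA and 194.8, 151.7 and 153.3 with control siRNA. The study itself calls A2058 CT16 positive and reports separately that siRNA1 silenced CT16 mRNA in these cells from 48 h on. Between 11311 and 13110 probes per array were above background. CT16 siRNA replicate 1 stood apart on the first principal component (71.8% of the variance), with a score of -37.5 against -9.03 and 16.5 on the other CT16 siRNA arrays and 4.49, 21.1 and 4.49 on the control siRNA arrays. Leaving it out moved the difference by over 1.5 times in 36 of the 48 genes named by rule. In 7 of them the sign changed. Shifting the 6 arrays to 1 median in place of quantile normalization moved 32 genes, 6 with a change of sign. Leaving out CT16 siRNA replicate 3 moved 25, 4 with a change of sign. The values without CT16 siRNA replicate 1 are given below for the genes with the larger differences. Of 8 melanocyte markers 7 were above background on 3 or more arrays, with TYR, PMEL, SOX10 and the brightest MITF probe on all 6. The other MITF probes were above background on 1 and 0 arrays, and MLANA on 1. TYRP1 and S100B passed on 3 and 4 arrays with signals of at most 214.1 and 210.4. Also above background on 3 or more arrays were 2 of 6 epithelial markers (KRT8 and KRT18, but CDH1, KRT5 and KRT14 on 0 arrays), 2 of 6 fibroblast markers (LUM and DCN, but COL1A2, COL3A1 and PDGFRB on 0) and 2 of 5 leukocyte markers (CD68 and LCP1, but PTPRC and CD14 on 0). The summed signal of the fibroblast list was 1537 to 2402 with CT16 siRNA and 1462 to 1715 with control siRNA, and that of the epithelial list 2971 to 5109 with CT16 siRNA and 3163 to 4358 with control siRNA. It was 1205 to 1269 with CT16 siRNA and 1170 to 1294 with control siRNA for the leukocyte list, and 8428 to 10323 with CT16 siRNA and 9639 to 11109 with control siRNA for the melanocyte list. LUM, a matrix proteoglycan, had a signal of 1305, 721.2 and 503.5 with CT16 siRNA and of 500.6, 399.5 and 631.4 with control siRNA, so it stood highest and lowest on the same arrays as HSP90AA1. The part of other cell types in the results was not tested.

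By limma, 0 of the 60 chaperones and 0 of all 12082 probes tested (0%) had an adjusted p under 0.05. At an unadjusted p under 0.05, 1 chaperone was higher with CT16 siRNA, against 4.39% of all probes, and 2 were lower, against 5.17%, which makes 3 in either direction against 9.57%. The rank product, the method of the study, ranked 2 chaperones as higher at a false discovery rate (FDR) under 0.05, against 0.795% of the probes above background, and 0 as lower, against 0.853%. These were HSP90AA1 and HSPH1. The groups did not overlap in 7 chaperones (16.3% of all probes), with all CT16 siRNA arrays above all control siRNA arrays in 2 (7.39% of all probes) and below them in 5 (8.95%). With the arrays only shifted to 1 median in place of quantile normalization, these counts were 4 and 0. With 3 arrays against 3, an exact permutation test of 1 gene cannot give a p under 0.1. The median difference of the 60 chaperones was 0.04, and that of all probes tested was below 0.001. The difference was positive in 36 chaperones and negative in 24, while it was positive in 50.1% of all probes. As these are bulk RNA samples, a lower share of cells that express a gene and less RNA per cell cannot be told apart.

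**Figure D1:**
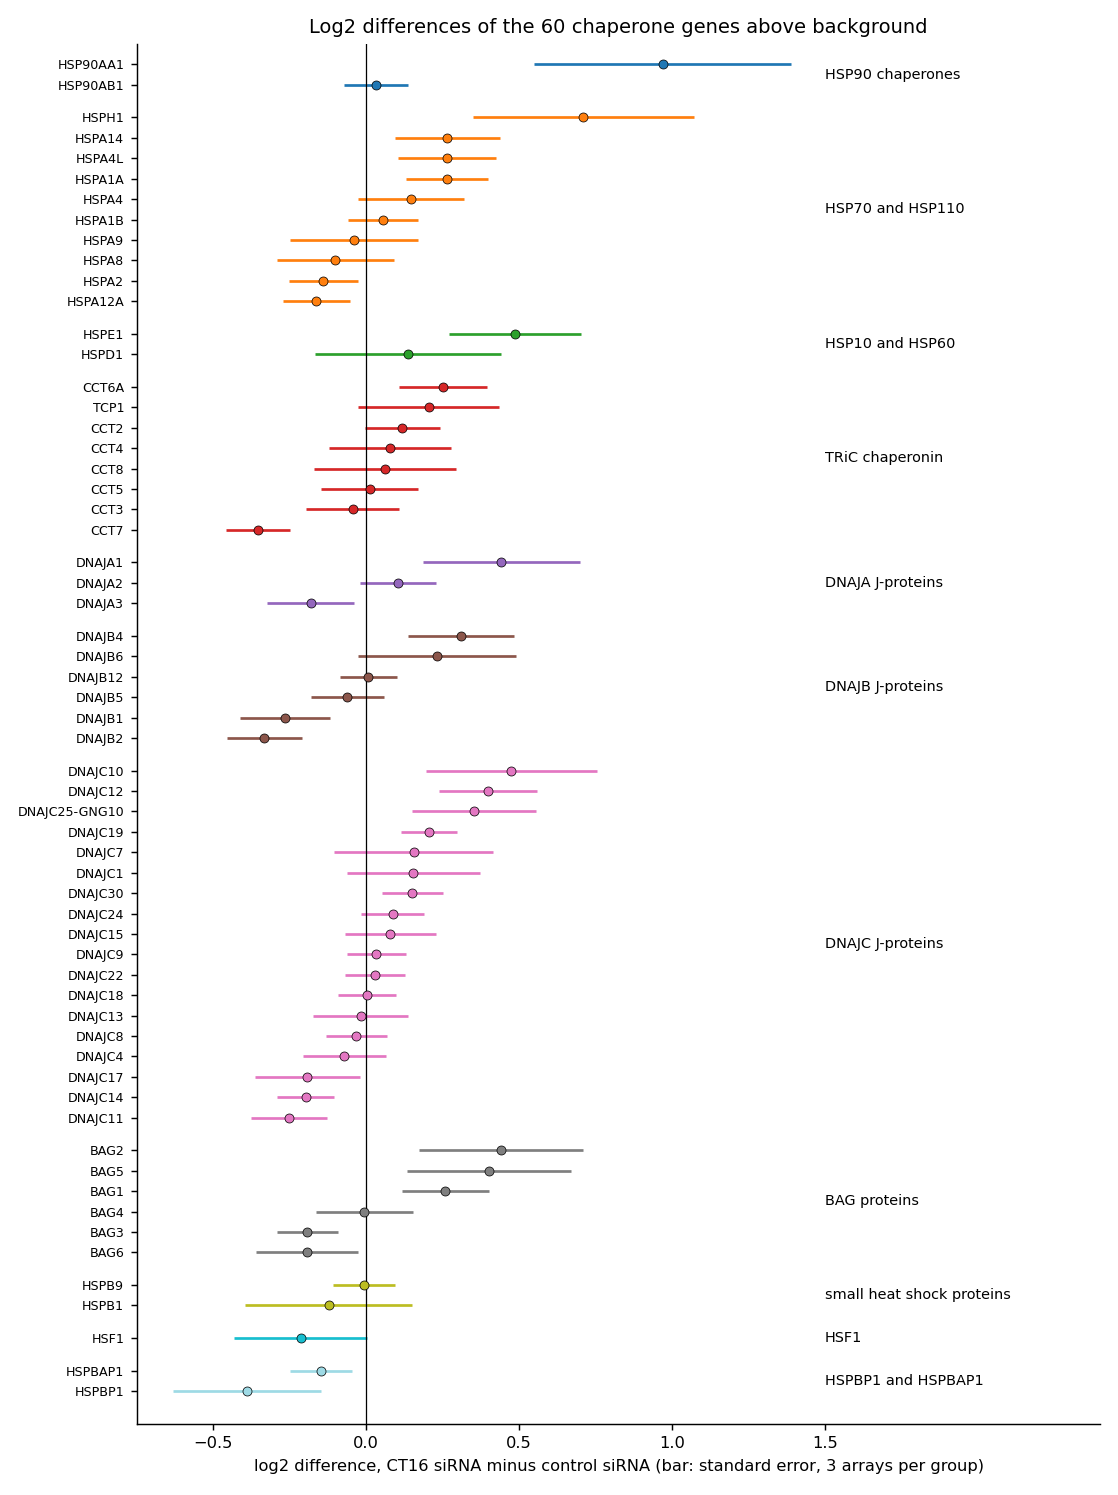
Log2 difference of each of the 60 chaperones above background, CT16 siRNA minus control siRNA (x axis), by class from top to bottom, as points with the limma standard error as a bar (3 arrays per group). HSP90AA1 at 0.97 and HSPH1 at 0.71 lie farthest to the right and HSPBP1 at -0.39 farthest to the left, with all other chaperones between them.

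HSP90AA1 had a log2 signal of 13.46, 12.48 and 11.81 on the CT16 siRNA arrays (replicates 1, 2 and 3 in this order, here and below), against 11.71, 11.05 and 12.08 on the control siRNA arrays. Before normalization its signal was 9191, 5904 and 4037 with CT16 siRNA and 2929, 2112 and 4592 with control siRNA. CT16 siRNA replicates 1 and 2 were above all the controls, but replicate 3 was below control siRNA replicate 3, so the groups overlapped. The difference was 0.97 (standard error 0.42, n = 3 per group), or 1.96-fold, with an adjusted p of 0.521 by limma and a rank product FDR of 0.00167. The CT16 siRNA arrays spanned 3.13-fold among themselves and the control siRNA arrays 2.04-fold. Leaving out CT16 siRNA replicate 1 gave a difference of 0.54 and an FDR of 0.357. Leaving out CT16 siRNA replicate 2 gave 1.02 and 0.354, and neqc background correction gave 1.01 and 0.153. In these last 2 settings the call was lost while the difference was no smaller.

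HSP90AB1, the constitutive HSP90, did not show this pattern. Its log2 signal was 12.57, 12.54 and 12.36 with CT16 siRNA and 12.43, 12.40 and 12.56 with control siRNA, and the difference was 0.03 (standard error 0.10; adjusted p = 0.924 by limma). All 6 arrays lay close together and the groups overlapped.

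HSPH1, the HSP110 that acts as nucleotide exchange factor and disaggregation partner of HSP70, followed HSP90AA1 across the arrays. It was at 11.76, 11.09 and 10.22 with CT16 siRNA and at 10.35, 9.98 and 10.61 with control siRNA. CT16 siRNA replicates 1 and 2 were again above all controls and replicate 3 among them. The difference was 0.71 (standard error 0.36), or 1.64-fold, with an adjusted p of 0.549 by limma and a rank product FDR of 0.0338. Leaving out CT16 siRNA replicate 1 gave a difference of 0.35 and an FDR of 0.732. Leaving out CT16 siRNA replicate 2 gave 0.68 and 0.962, so the call was lost with nearly the same difference. The FDR was also above the threshold without control siRNA replicate 2 (0.0898, difference 0.53), after neqc (0.331, difference 0.78) and with ranks taken over the probes above background alone (0.109). Without CT16 siRNA replicate 3 the difference was 1.09 and the limma adjusted p 0.0478. On that omission 2.59% of all probes tested passed, and HSPH1 was the only chaperone among them.

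**Figure D2:**
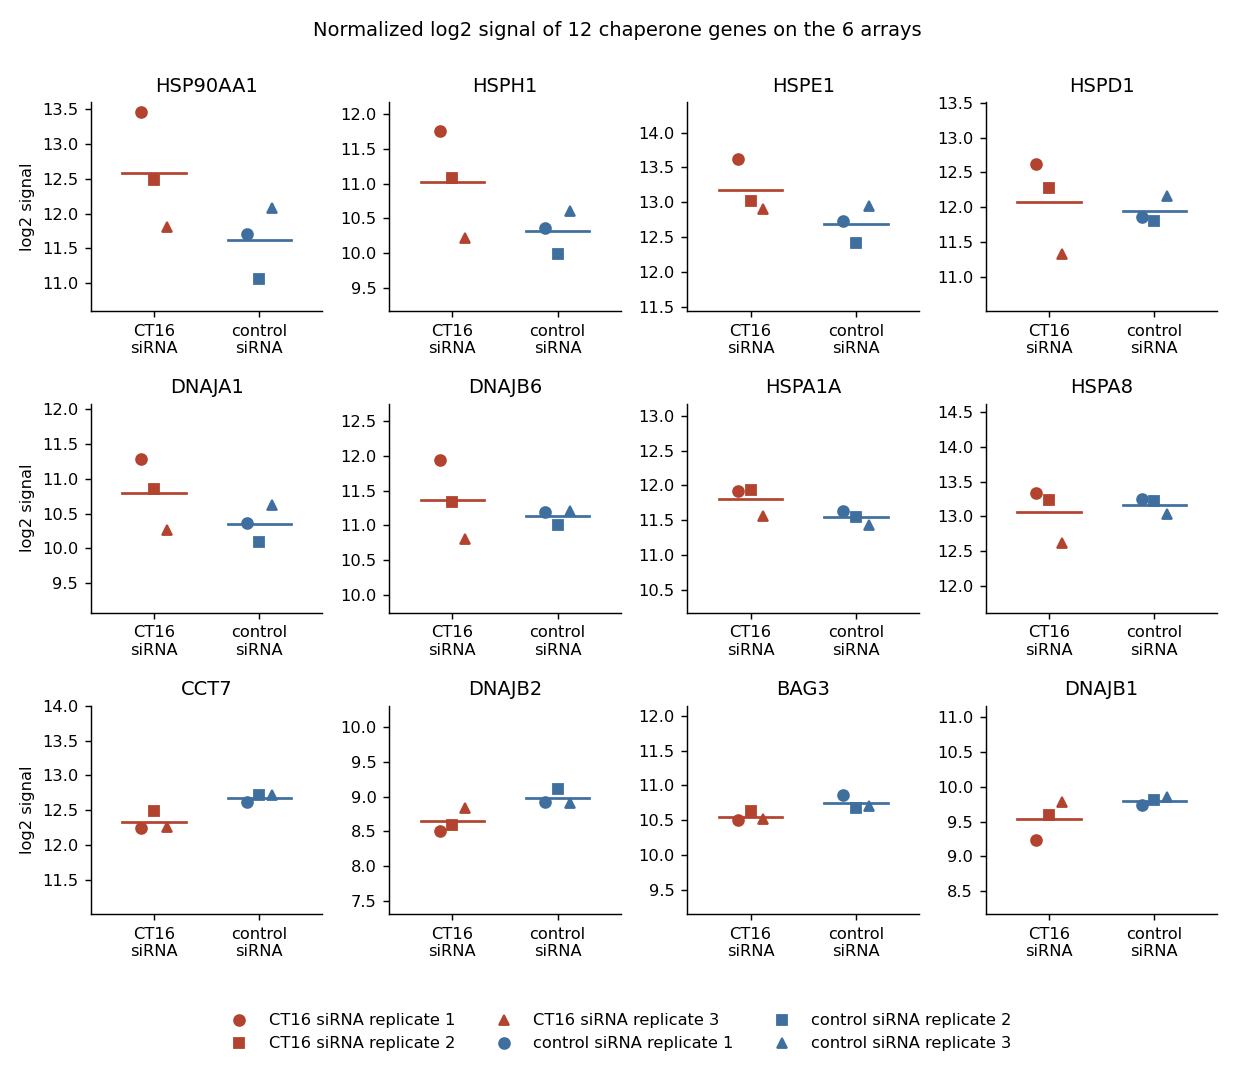
Normalized log2 signal (y axis, each panel covering the same span) of 12 chaperones on the CT16 siRNA arrays (red, left in each panel) and the control siRNA arrays (blue, right), with symbols for the replicate and a line at the group mean. CT16 siRNA replicate 1 is the highest array for HSP90AA1, HSPH1, HSPE1, HSPD1, DNAJA1, DNAJB6 and HSPA8, while CCT7, DNAJB2 and BAG3 have all CT16 siRNA arrays below all control siRNA arrays.

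The HSP70 proteins, which bind unfolded stretches of their clients, had small differences. HSPA1A, the stress-inducible HSP70, was at 11.92, 11.93 and 11.55 with CT16 siRNA and at 11.64, 11.55 and 11.43 with control siRNA. Its groups overlapped, and the difference was 0.26 (standard error 0.13, adjusted p = 0.542 by limma). HSPA1B, the nearly identical neighbouring gene, had a difference of 0.05 (standard error 0.11). A probe may not keep the transcripts of these 2 genes apart, so both values are uncertain. HSPA8, the constitutive HSC70, was measured by 2 probes, with differences of -0.10 (standard error 0.19) and -0.07 (standard error 0.13). HSPA9, the mitochondrial HSP70, had -0.04.

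The HSP110 relatives of HSPH1 were closer to the controls. HSPA4 had a difference of 0.15 (standard error 0.17) and HSPA4L one of 0.26 (standard error 0.16). HSPA14, a ribosome-associated HSP70, had 0.26 (standard error 0.17). Without CT16 siRNA replicate 1 these 3 genes had 0.074, 0.088 and 0.071. The testis-enriched HSPA2 had -0.14 and HSPA12A, a distant relative, -0.16 (both with a standard error of 0.11), and both were above 0 with a median shift, at 0.068 and 0.023. Of the 14 HSP70 and HSP110 genes, 10 were above background, and none of the 10 had groups without overlap, against 16.3% of all probes. HSPA6, a strictly inducible HSP70 with a match of 3 units in its promoter window, was above background on 1 array, HSPA12B on 1, and HSPA1L and HSPA13 on 2.

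HSPE1 and HSPD1, the HSP10 and HSP60 of the mitochondrial chaperonin, are neighbouring genes read in opposite directions from 1 promoter region. HSPE1 was at 13.62, 13.02 and 12.90 with CT16 siRNA and at 12.73, 12.41 and 12.94 with control siRNA. The lowest CT16 siRNA array lay just under the highest control siRNA array. The difference was 0.49 (standard error 0.21, adjusted p = 0.523 by limma), and 0.27 without CT16 siRNA replicate 1. HSPD1 was at 12.62, 12.28 and 11.33 with CT16 siRNA and at 11.86, 11.80 and 12.16 with control siRNA. CT16 siRNA replicate 1 was the highest of all arrays for both genes, but replicate 3 was the lowest for HSPD1. The difference of HSPD1 was 0.14 (standard error 0.30), and -0.14 without CT16 siRNA replicate 1. Among 10 chaperones listed as mitochondrial, 9 were above background, with a median difference of 0.08, 5 positive and 4 negative.

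The TRiC subunits were all above background. The difference was positive in 6 and negative in 2 of the 8, with a median of 0.07, which became -0.08 on leaving out CT16 siRNA replicate 1 and 0.27 on leaving out CT16 siRNA replicate 3. CCT6A had a difference of 0.25 (standard error 0.14), TCP1 of 0.20 (standard error 0.23), CCT2 of 0.12 and CCT4 of 0.08. CCT8, CCT5 and CCT3 had 0.06, 0.01 and -0.04. Without CT16 siRNA replicate 1 TCP1 was at 0.02, CCT4 at -0.08 and CCT8 at -0.17. CCT7, which takes its place in the same rings as the others, lay apart from them. It was at 12.24, 12.48 and 12.26 with CT16 siRNA and at 12.62, 12.71 and 12.71 with control siRNA. Every CT16 siRNA array was below every control siRNA array. Before normalization, however, control siRNA replicate 1 had a signal of 5336.5, below the 5899.5 and 5613.9 of CT16 siRNA replicates 2 and 3. With a median shift in place of quantile normalization the groups of CCT7 overlapped. The difference was -0.35 (standard error 0.10), or 0.782-fold, with an adjusted p of 0.477 by limma, the smallest among the chaperones, and an unadjusted p of 0.0104. It stayed between -0.44 and -0.26 under the 13 alternatives tried. Alternatives that change only the filter or the test could not move it. The CCT relatives CCT6B and CCT8L2 were not above background on any array.

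J-proteins, which bring clients to HSP70, were the largest class, with 27 of 37 above background. Their median difference was 0.03, with 17 positive and 10 negative. DNAJA1, a cytosolic partner of HSP70, was at 11.28, 10.85 and 10.26 with CT16 siRNA and at 10.36, 10.09 and 10.62 with control siRNA. As for HSPH1, CT16 siRNA replicates 1 and 2 were above the controls and replicate 3 was not. The difference was 0.44 (standard error 0.26, adjusted p = 0.570 by limma), and 0.21 without CT16 siRNA replicate 1. Its relative DNAJA2 had a difference of 0.10 (standard error 0.12). DNAJB6, which keeps polyglutamine proteins from aggregating, was measured by 3 probes. The brightest was at 11.95, 11.33 and 10.81 with CT16 siRNA and at 11.19, 11.01 and 11.20 with control siRNA, and had a difference of 0.23 (standard error 0.26). The others had 0.50 (standard error 0.17) and 0.45 (standard error 0.18), with adjusted p values of 0.481 and 0.515 by limma. The probe with 0.50 had no overlap between the groups, so the probes of this gene disagreed on overlap.

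DNAJC12, a co-chaperone of the aromatic amino acid hydroxylases, was the only chaperone higher at an unadjusted p under 0.05 when each gene was read from its brightest probe (the dimmer probes of DNAJB6 also were, at 0.0198 and 0.0424). It was at 9.03, 8.55 and 8.45 with CT16 siRNA and at 8.25, 8.22 and 8.37 with control siRNA. All CT16 siRNA arrays were above all control siRNA arrays. The difference was 0.40 (standard error 0.16, adjusted p = 0.514 by limma), 0.26 with a second probe, and 0.22 without CT16 siRNA replicate 1. DNAJC19, a J-protein of the mitochondrial import motor, was at 8.87, 8.87 and 9.0 with CT16 siRNA and at 8.72, 8.72 and 8.68 with control siRNA. It was the other chaperone with all CT16 siRNA arrays above all control siRNA arrays, by 0.21 (standard error 0.09, adjusted p = 0.523). DNAJC10, a disulfide reductase of the endoplasmic reticulum, had 0.47 (standard error 0.28), DNAJB4 had 0.31 (standard error 0.17) and the readthrough transcript DNAJC25-GNG10 had 0.35 (standard error 0.20), each with overlap between the groups. Without CT16 siRNA replicate 1 they had 0.16, 0.12 and 0.14.

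On the lower side stood DNAJB2, which passes HSP70 clients to the proteasome. It was at 8.50, 8.59 and 8.84 with CT16 siRNA and at 8.92, 9.10 and 8.90 with control siRNA. The groups did not overlap, and the difference was -0.33 (standard error 0.12, adjusted p = 0.486 by limma), or -0.13 with a median shift. DNAJB1, the classical heat-inducible HSP40, was at 9.23, 9.59 and 9.79 with CT16 siRNA and at 9.74, 9.82 and 9.85 with control siRNA. Its highest CT16 siRNA array lay between the controls, and the difference was -0.27 (standard error 0.15, adjusted p = 0.560), or -0.12 without CT16 siRNA replicate 1. DNAJC11, of the mitochondrial outer membrane, had -0.25 (standard error 0.12) and DNAJC14 had -0.20 (standard error 0.09), both without overlap between the groups. With a median shift they had -0.063 and -0.0080, and no lower chaperone kept its groups apart. The 17 J-proteins other than the 10 with the smallest limma p had differences between -0.19 (DNAJC17) and 0.23 (DNAJB6).

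The BAG proteins, which release the nucleotide from HSP70, were all above background and divided evenly, 3 positive and 3 negative. BAG2 had a difference of 0.44 (standard error 0.27), BAG5 of 0.40 (standard error 0.27) and BAG1 of 0.26 (standard error 0.14). Without CT16 siRNA replicate 1 BAG2 had 0.13, BAG5 0.14 and BAG1 0.40. BAG4 had -0.01 and BAG6 -0.19 (standard error 0.17). BAG3, the inducible member that directs aggregated proteins to autophagy, was at 10.50, 10.63 and 10.52 with CT16 siRNA and at 10.85, 10.67 and 10.71 with control siRNA. All CT16 siRNA arrays were below all control siRNA arrays, and the difference was -0.19 (standard error 0.10, adjusted p = 0.552 by limma). With a median shift in place of quantile normalization the difference of BAG3 was -0.04.

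HSPB1, the small heat shock protein HSP27, was at 9.23, 9.97 and 10.35 with CT16 siRNA and at 9.71, 10.21 and 9.99 with control siRNA. The CT16 siRNA arrays held both the highest and the lowest value, and the difference was -0.12 (standard error 0.27), or 0.19 without CT16 siRNA replicate 1. Of 7 small heat shock proteins only HSPB1 and HSPB9 were above background, and HSPB2, HSPB3, HSPB6, HSPB7 and HSPB8, several of them known from muscle, were above background on at most 1 array. HSF1, the activator of the inducible genes, was at 8.43, 8.88 and 9.24 with CT16 siRNA and at 8.98, 9.34 and 8.88 with control siRNA, and the difference was -0.21 (standard error 0.22). Its groups overlapped, and the difference was -0.0049 without CT16 siRNA replicate 1 and -0.0033 with a median shift. HSPBP1, a nucleotide exchange factor of HSP70 that the HSPB prefix brought in, had the lowest difference of all 60, -0.39 (standard error 0.24, adjusted p = 0.581 by limma). It was at 9.58, 10.18 and 10.63 with CT16 siRNA and at 10.51, 10.62 and 10.43 with control siRNA, with CT16 siRNA replicate 1 below all other arrays.

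Grouped by their known response to heat, 12 of 15 inducible chaperones were above background and had a median difference of 0.26, with 9 positive and 3 negative (DNAJB1, HSPB1 and BAG3). In the 12 constitutive chaperones (HSPA8, HSPA4, HSP90AB1, DNAJA2 and the TRiC subunits) the median was 0.07, with 9 positive and 3 negative. Within some families the inducible member was higher than a constitutive relative. HSP90AA1 had 0.97 and HSP90AB1 0.03, HSPH1 0.71 and HSPA4 0.15, and DNAJA1 0.44 and DNAJA2 0.10. HSPA1A had 0.26 and HSPA1B 0.05, against -0.10 for HSPA8. Of the other HSP70 members outside the inducible list, however, HSPA14 had 0.26, no lower than HSPA1A. HSPA9 had -0.04, HSPA2 -0.14 and HSPA12A -0.16. In other families the direction was mixed. The inducible DNAJB1 had -0.27 and the inducible DNAJB4 0.31, against 0.23 for DNAJB6, 0.0073 for DNAJB12, -0.06 for DNAJB5 and -0.33 for DNAJB2. The inducible BAG3 had -0.19, against 0.44 for BAG2, 0.40 for BAG5, 0.26 for BAG1, -0.01 for BAG4 and -0.19 for BAG6. These genes were chosen with the values known and were not tested.

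The inducible chaperones varied within the CT16 siRNA group, with a median SD of 0.35 over the CT16 siRNA arrays and 0.17 over the control siRNA arrays, against 0.17 and 0.12 for all probes. Their median log2 signal relative to each gene's mean over the 6 arrays was 0.50, 0.13 and -0.12 on the CT16 siRNA arrays, against -0.20, -0.17 and 0.02 on the control siRNA arrays. For the TRiC subunits it was 0.27, 0.13 and -0.29 with CT16 siRNA and -0.02, -0.07 and -0.04 with control siRNA. CT16 siRNA replicate 3 thus lay on the other side of the controls from replicate 1 for TRiC, and between them for the inducible genes. CT16 siRNA replicate 1 was the highest of all arrays in 30 of 60 chaperones (50%), against 29.2% of all probes, and the lowest in 17 (28.3%), against 34.1%. CT16 siRNA replicate 3 was the lowest in 20 (33.3%), against 18% of all probes. The CT16 siRNA arrays spanned a wider range than the control siRNA arrays in 52 of 60 chaperones (86.7%), and in 68.6% of all probes. In 55 of 60 (91.7%, against 84.8% of all probes) the range within the CT16 siRNA group was wider than the difference between the groups. What set the CT16 siRNA replicates apart was not tested.

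**Figure D3:**
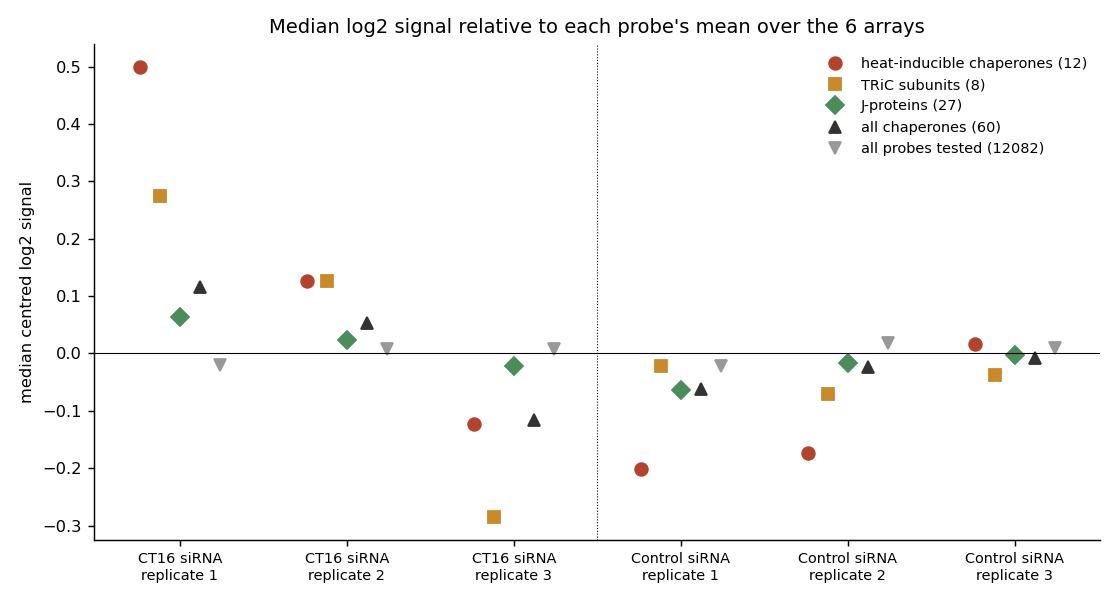
Median over the genes of each list of the log2 signal minus the gene's own mean over the 6 arrays (y axis), for each CT16 siRNA array (left) and each control siRNA array (right of the dotted line), with the number of genes in the legend. The inducible chaperones reach 0.50 and the TRiC subunits 0.27 in CT16 siRNA replicate 1. The median over all probes tested stays near 0 on every array, where quantile normalization largely holds it.

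Heat shock elements were then counted in the 300 bases from 250 before to 50 after each RefSeq start. A match of 3 units was found in 172 of 35116 promoters (0.49%). Counted by gene, where 1 start with a match is enough, it was found in 7 of the 71 chaperones with an entry (9.86%) and in 0.608% of all 27305 genes. These were the 6 with capitals above and HSPA6. A match of 2 units only, GAANNTTC or TTCNNGAA, which are each their own reverse complement and are also contained in the longer motif, was found in 20 chaperones. With the 3-unit genes, which hold it too, 27 of 71 chaperones (38.0%) had the motif of 2 units, against 16.2% of all genes and 13.5% of all promoters. In 44 chaperones there was no match, and the other 10 of the 81 had no entry in the table used. The 6 genes above background with 3 units had a median difference of 0.18, with 5 positive and 1 negative (HSPA8). The 12 with 2 units had a median of 0.10, with 9 positive and 3 negative, and the 35 with no match one of -0.01, with 17 positive and 18 negative. The differences of the genes with no match ran from -0.39 to 0.71, so that the ranges overlapped.

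Of the 3 motif classes, the genes with 3 units had the median that spanned the widest range between the CT16 siRNA arrays. Their median relative to each gene's mean was 0.66, 0.19 and -0.38 on the CT16 siRNA arrays and -0.10, -0.22 and 0.01 on the control siRNA arrays. With 2 units it was 0.27, 0.13 and -0.13 with CT16 siRNA and -0.03, -0.11 and -0.04 with control siRNA. The median of the genes with no match stayed between -0.06 and 0.03 on all 6 arrays, but single genes among them did not. Over CT16 siRNA replicates 1 to 3 HSPH1 fell from 11.76 to 10.22, while HSPBP1 rose from 9.58 to 10.63. The spread of the first class thus lay within the CT16 siRNA group, with the control siRNA arrays between its extremes.

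**Figure D4:**
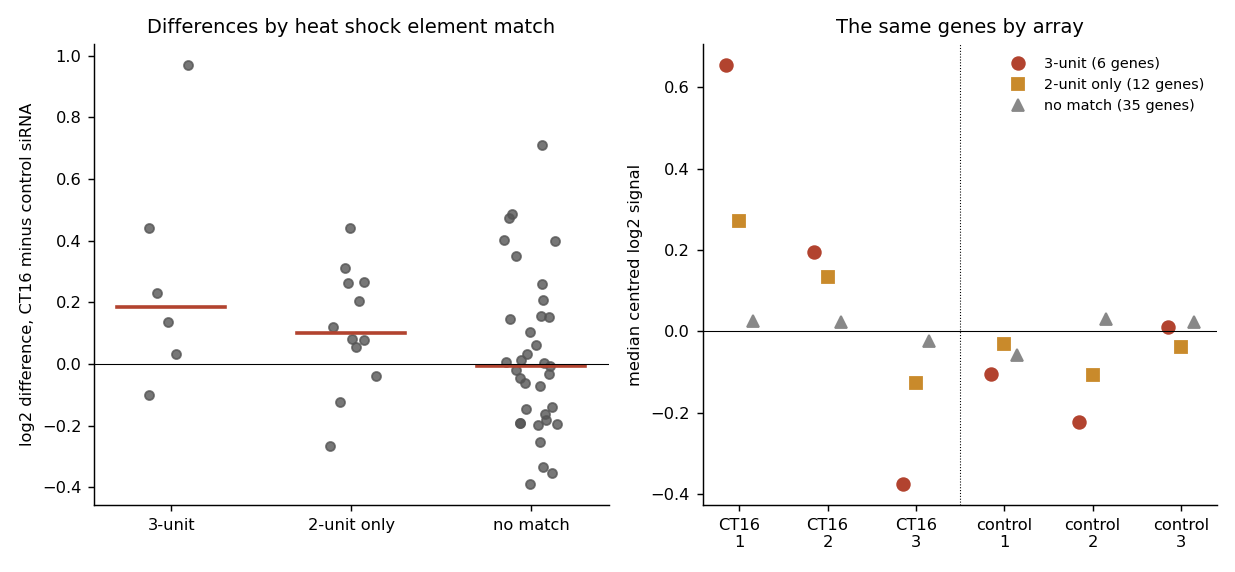
Left, log2 difference (CT16 siRNA minus control siRNA, y axis) of each chaperone by heat shock element match, with a red line at the median. Right, median log2 signal relative to each gene's mean (y axis) of the same classes on each CT16 siRNA array and each control siRNA array. The median of the 3-unit genes runs from 0.66 to -0.38 within the CT16 siRNA group, and that of the genes with no match stays near 0.

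Co-chaperones outside the symbol choice were read from a list of 27 partners of HSP70 and HSP90, of which 22 were above background. By limma 0 passed an adjusted p under 0.05, and at an unadjusted p under 0.05 2 were higher (4.39% of all probes) and 0 lower (5.17%). Their median difference was below 0.01, with 12 positive and 10 negative. HSBP1, a small protein that binds HSF1 and restrains it, was at 12.24, 12.10 and 12.11 with CT16 siRNA and at 11.75, 11.57 and 11.86 with control siRNA. All CT16 siRNA arrays were above all control siRNA arrays, with little spread in either group, and the difference was 0.43 (standard error 0.11, adjusted p = 0.410 by limma). ST13, the HSP70-interacting protein Hip, was at 9.06, 8.84 and 8.47 with CT16 siRNA and at 8.44, 8.23 and 8.37 with control siRNA, again without overlap. Its difference was 0.44 (standard error 0.16, adjusted p = 0.483), and 0.59 with an adjusted p of 0.0489 without CT16 siRNA replicate 3. CHORDC1, an HSP90 partner, had 0.23 (standard error 0.11) and TTC1 -0.20 (standard error 0.10, or -0.015 with a median shift), both without overlap. STIP1, the adaptor between HSP70 and HSP90, and CDC37, which brings kinases to HSP90, had differences below 0.01, with standard errors of 0.14 and 0.11.

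The chaperones of the endoplasmic reticulum, which answer to the unfolded protein response, had differences in both directions. HSP90B1, the HSP90 of that compartment, was at 11.76, 11.16 and 10.54 with CT16 siRNA and at 10.49, 10.28 and 10.96 with control siRNA, a pattern across arrays like that of HSP90AA1. Its difference was 0.58 (standard error 0.31, adjusted p = 0.558 by limma), or 0.28 without CT16 siRNA replicate 1. HSPA5, the HSP70 known as BiP, was at 8.32, 8.41 and 8.29 with CT16 siRNA and at 8.64, 8.53 and 8.56 with control siRNA. All CT16 siRNA arrays were below all control siRNA arrays, and the difference was -0.24 (standard error 0.09, adjusted p = 0.50 by limma), or -0.036 with a median shift. DNAJB9 had 0.33 (standard error 0.15), without overlap, and DNAJB11 had 0.06 (standard error 0.29). Without CT16 siRNA replicate 1 they had 0.17 and -0.26, and DNAJC3 was above background on 2 arrays.

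**Figure D5:**
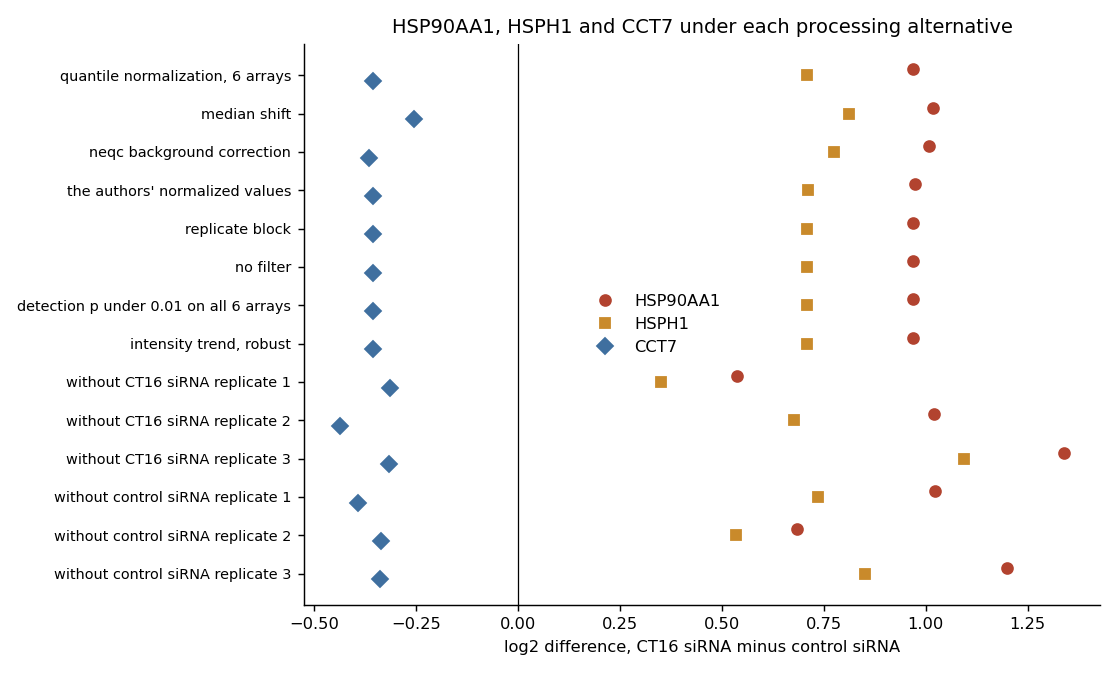
Log2 difference (CT16 siRNA minus control siRNA, x axis) of HSP90AA1, HSPH1 and CCT7 under each way of processing the arrays and with each array left out (rows). HSP90AA1 and HSPH1 stay positive and CCT7 negative in every row, and HSP90AA1 is lowest, at 0.54, without CT16 siRNA replicate 1 and highest, at 1.34, without replicate 3. Rows that change only the filter or the test repeat the same difference by construction.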

How the data were processed

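Per probe and array the authors deposited a linear signal intensity without normalization and a detection p-value. They also deposited intensity values normalized by the quantile method. Bead summary software and any background subtraction were not given in the sources used here. Of 47296 probes 47289 held values, and 18468 had a gene symbol in the platform annotation.

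The treatment label gave the group of each array, and the series text states separate cultures. Intensities were quantile-normalized, log2-transformed and fitted with limma 3.58.1 under R 4.3.3 (moderated two-sided tests from lmFit and eBayes, Benjamini-Hochberg adjustment over 12082 probes with a detection p under 0.05 on at least 3 arrays). The rank product was written after the published algorithm (9 pairwise ratios, 100 permutations within arrays, all 47289 probes). Both were tested on simulated data. Where a gene had several probes, the brightest was used. Precision is limited by the number of arrays, and median signals per array were 164.4 to 190.6.

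The members and gene lists were chosen with earlier results of these data known. Values were given for all inducible, HSP70, HSP110, HSP90, TRiC and BAG members above background, HSF1, the 10 J-proteins and 4 outside co-chaperones with the smallest p, and the 5 endoplasmic reticulum chaperones. DNAJA2, DNAJB6, DNAJB12, DNAJC17, LUM, HSPBP1, STIP1, CDC37 and the prefoldin genes were added after their values were seen. Promoters came from RefSeq (GRCh38.p14), with 71 of 81 genes matched by gene ID. Alternatives were a median shift, neqc (offset 16), the deposited normalized values, no filter, detection p under 0.01 on all 6 arrays, an intensity trend with robust fit, the replicate number as a block, only probes above background ranked, every probe that passed, and each array left out in turn. Figures were drawn with matplotlib 3.10.9.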

Additional observations from a re-analysis of the deposited data

How the results depend on the processing

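No chaperone passed by limma under any way of processing all 6 arrays, and the difference changed sign in 29 of 622 alternatives of the 48 genes named by rule. The replicate block, the changed filters and the intensity trend use the same normalized values. They cannot move a difference, and they add to the number of alternatives without testing its sign. A median shift moved the median of all probes to 0.10. The chaperone median was then 0.16, that of the J-proteins 0.20, and the groups did not overlap in 4 chaperones, all higher. By rank product 0 chaperones were called after neqc and 1 (HSP90AA1) when only probes above background were ranked. With every probe that passed, the J-protein median was 0.083.
Leaving out each array in turn gave 0 to 1 limma calls among the chaperones (HSPH1, without CT16 siRNA replicate 3) and 0 to 1 among the outside co-chaperones (ST13, on the same omission). Rank product calls ran from 0 (without CT16 siRNA replicate 1 or 2) to 3 (without CT16 siRNA replicate 3, with HSPBP1 lower). The median ran from -0.0054 to 0.133 for the chaperones, from -0.08 to 0.27 for TRiC, from -0.0052 to 0.082 for the J-proteins and from 0.15 to 0.41 for the inducible members, with the lowest without CT16 siRNA replicate 1 and the highest without replicate 3. Groups without overlap ran from 7 to 35 chaperones, and groups of fewer arrays separate more easily. The cause of the other changes was not tested.
Same-numbered arrays deviated together in 1 of 3 pairs (correlations of 0.423, 0.021 and -0.410). With 3 arrays per group this cannot settle whether same-numbered cultures were handled together. With the replicate number as a block, limma called 0 chaperones and the rank product 2, with an FDR of 0.00429 for HSP90AA1 and 0.0474 for HSPH1. A block leaves the medians as they were by construction.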

Other observations

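Prefoldin, which hands unfolded actin and tubulin to TRiC, and the TRiC cofactors were measured by 7 of 10 listed genes above background. Their median difference was 0.20, with 5 positive and 2 negative. By limma 0 had an adjusted p under 0.05 (0% of all probes) and 0 an unadjusted one (9.57%). By rank product 0 were called, against 0.795% of the probes above background as higher and 0.853% as lower. The groups overlapped in all 7, while they did not overlap in 16.3% of all probes, so with so few genes these counts say little. VBP1, a prefoldin subunit, was at 9.68, 8.91 and 8.74 with CT16 siRNA and at 8.63, 8.49 and 8.94 with control siRNA, and the difference was 0.42 (standard error 0.25). PFDN6 had 0.22 (standard error 0.17) and PFDN2 0.20 (standard error 0.16), while PFDN5 had -0.08 (standard error 0.17). PDCD5, a TRiC cofactor, had 0.23 (standard error 0.13). As among the chaperones, CT16 siRNA replicate 1 was the highest of the 6 arrays for VBP1, PFDN2 and PDCD5, but for PFDN6 it was CT16 siRNA replicate 3.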
